A study of Mus musculus with 14 samples.

Results

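The genes that encode potassium channels and the related hyperpolarization-activated cation channels were examined in hippocampal RNA of mice labelled LPAR2-/- and of wild-type (WT) mice. They were taken from the count table by symbol, as every gene whose name starts with Kcn or Hcn followed by a letter or a digit. Of 102 such genes among 24421, the 4 on chromosome 8 (which also carries Lpar2) and 19 with under 10 counts in 7 or more of the 14 mice were left out, and 79 remained. All 79 passed the filter of edgeR on low counts and were tested in 1 fit with the other genes, 14897 in all.

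Potassium channels let potassium leave the cell and so set the resting potential of neurons, end the action potential and limit repetitive firing. HCN channels open on hyperpolarization, pass sodium and potassium, and in hippocampal pyramidal cells damp the summation of dendritic input. Both groups consist of pore-forming subunits and of auxiliary subunits that change their gating or bring them to the membrane. The study asked how the loss of LPAR2, a receptor for lysophosphatidic acids described as raising glutamate release, alters cognition and hippocampal excitability. It also tested an LPAR2 antagonist on behavior.

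The libraries came from 7 naive male mice labelled LPAR2-/- and 7 naive male WT mice of strain 129.C57Bl6, with 1 library per mouse. The LPAR2-/- mice lack part of exon 2 of Lpar2 in every cell and were kept as a homozygous colony beside a control colony of mixed C57BL/6 and 129/SvJ background, so that genotype and colony cannot be told apart. The labels state an age of 10 to 12 weeks and the design text calls the mice middle-aged to aged, so that their age is not known. The labels and the methods of the study name the hippocampus, whereas its abstract and results name the dentate gyrus. In bulk tissue, fewer cells of a type and less RNA per cell cannot be told apart.

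Counts on genes were between 15434620 and 23258949 per mouse (median 19499276 in LPAR2-/- and 19964167 in WT mice). Lpar2, the targeted gene, had more counts in the libraries labelled LPAR2-/- (144 to 234) than in the WT libraries (27 to 66), so that every direction given here refers to the labels. Counts per gene do not measure the deleted part of exon 2. Fos and Arc, which neuronal activity induces, were lower in the libraries labelled LPAR2-/-, with 1.95 to 5.12 against 5.13 to 22.6 CPM (counts scaled to a common library size) and 23.2 to 52.6 against 48.4 to 110 CPM (edgeR, adjusted p = 0.00781 and 0.0155). The markers of neurons, astrocytes, dentate gyrus and CA3 were counted, with summed dentate gyrus levels of 1178 to 1917 CPM. Of 14 lists of cell type and region markers, none passed the threshold for a difference in summed level between the genotypes (exact two-sided permutation tests, lowest adjusted p = 0.345), and LPAR2-/- mouse 2 stood apart in choroid plexus markers (297 CPM, against 30.2 to 55.4 in the other LPAR2-/- mice). Oligodendrocyte markers stood apart in LPAR2-/- mouse 3 (4107 CPM, against at most 2055 in its genotype).

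In WT mice the level per length, given as RPKM (CPM per kilobase of counted exon), spanned from 0.144 for Kcnh7 to 188 for Kcnab2. Kcnab2, a cytoplasmic beta subunit of Kv channels, and Kcnip2, a calcium-binding subunit (KChIP) of the A-type channels, were the most abundant members (188 and 158 RPKM). Kcnab1, another beta subunit, was at 47.0 RPKM and Kcnc4, a subunit of fast delayed rectifiers, at 43.7 RPKM. Summed over a family, the 21 Kv alpha subunits reached 377 ± 13.5 RPKM (SD, n = 7) in WT and 365 ± 16.5 RPKM (SD, n = 7) in LPAR2-/- mice. The 13 auxiliary subunits summed to 505 ± 21.3 and 490 ± 22.4 RPKM and the 12 inward rectifiers to 202 ± 8.07 and 218 ± 12.9 RPKM, WT first. The smallest sums were those of the K2P (leak) channels, with 25.3 ± 0.926 RPKM in WT and 27.8 ± 1.17 RPKM in LPAR2-/- mice, and of the HCN channels, with 29.7 ± 1.98 and 27.7 ± 2.70 RPKM. These levels rest on the exons that the authors counted. Those exons hold a median of 88.55% of the bases that GENCODE M21 gives for the 79 genes, but under 50% for 12 of them, among these Kcnk9 (9.83%), Kcnq3 (19.6%) and Kcnma1 (32.1%).

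**Figure D1:**
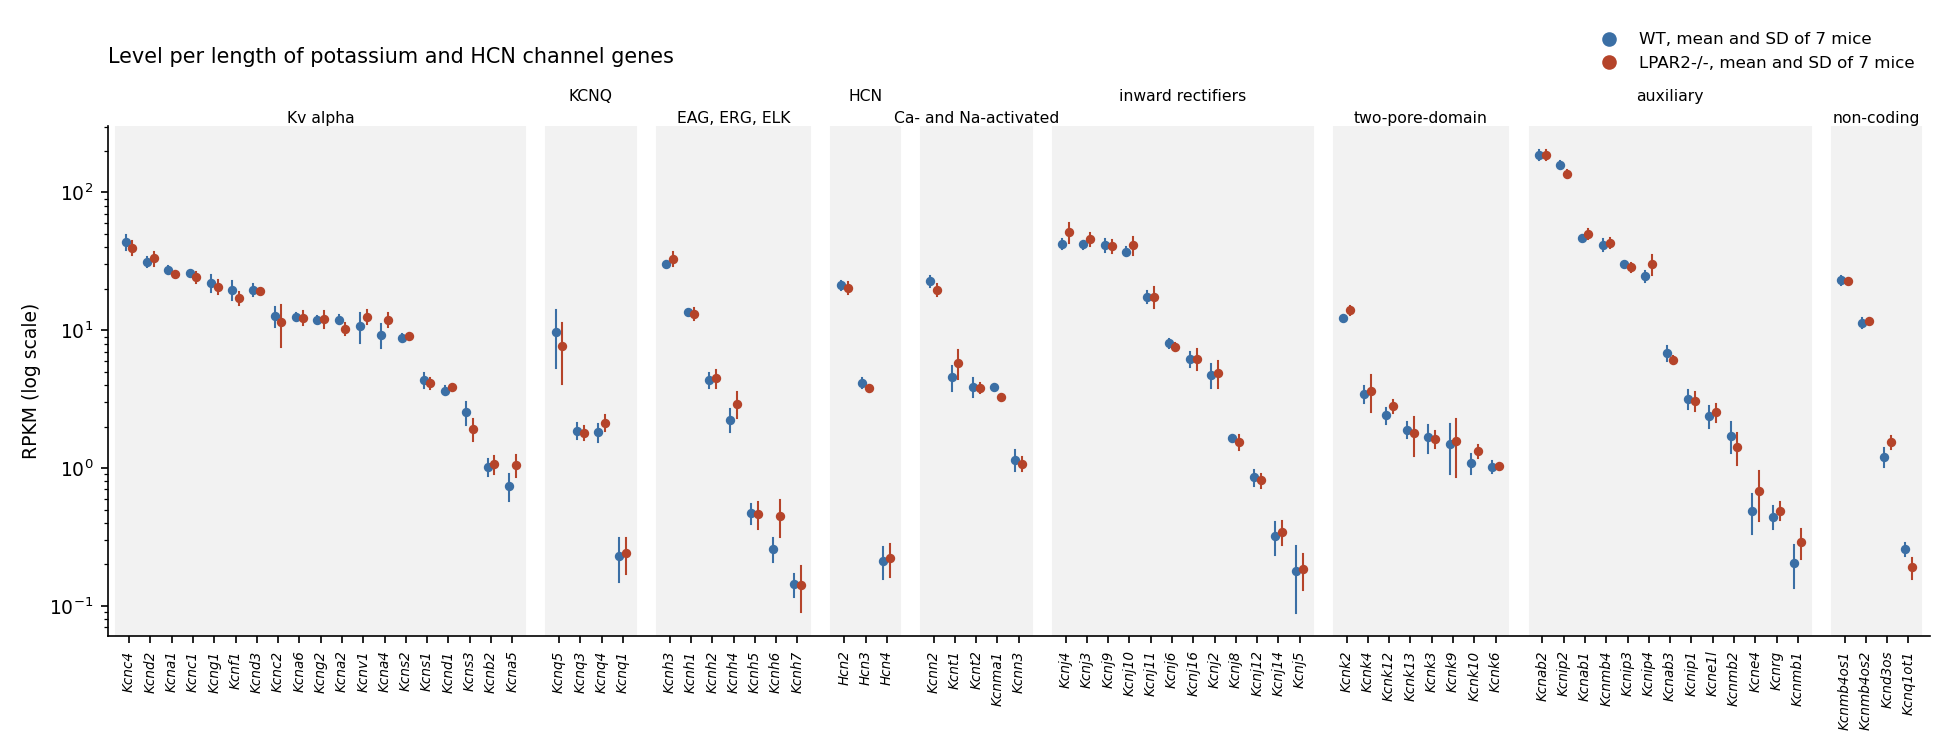
Level per length (RPKM, log axis) of 75 of the 79 genes, by family and in falling order of the WT mean, in WT (blue) and LPAR2-/- mice (red), with points for means and lines for the SD of 7 mice. The genotypes lie close together beside a range from 0.144 to 188 RPKM between genes.

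Between the genotypes, 6 of the 79 genes passed an adjusted p of 0.05 (7.59%), against 6.77% of the 14897 genes tested, so that the share of channel genes was near that of all genes. Higher in the mice labelled LPAR2-/- were Kcnh6 and Kcnk2, 2 of 79 against 3.32% of all genes, and lower were Kcnma1, Kcnip2, Kcnq1ot1 and Kcna2, 4 of 79 against 3.46% of all genes. Over all genes, 494 were higher and 515 lower, or 616 and 377 with scaling to the upper quartile. At an unadjusted p under 0.05, 22 of the 79 genes (27.8%) differed, 13 higher and 9 lower, against 22.4% of all genes. No channel gene had genotypes without overlap (0 of 79, against 1.77% of all genes). The fold changes were small and went both ways, with 39 genes above 0 and 40 below. Their median was −0.0014 on the log2 scale, against 0.0029 over all genes.

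**Figure D2:**
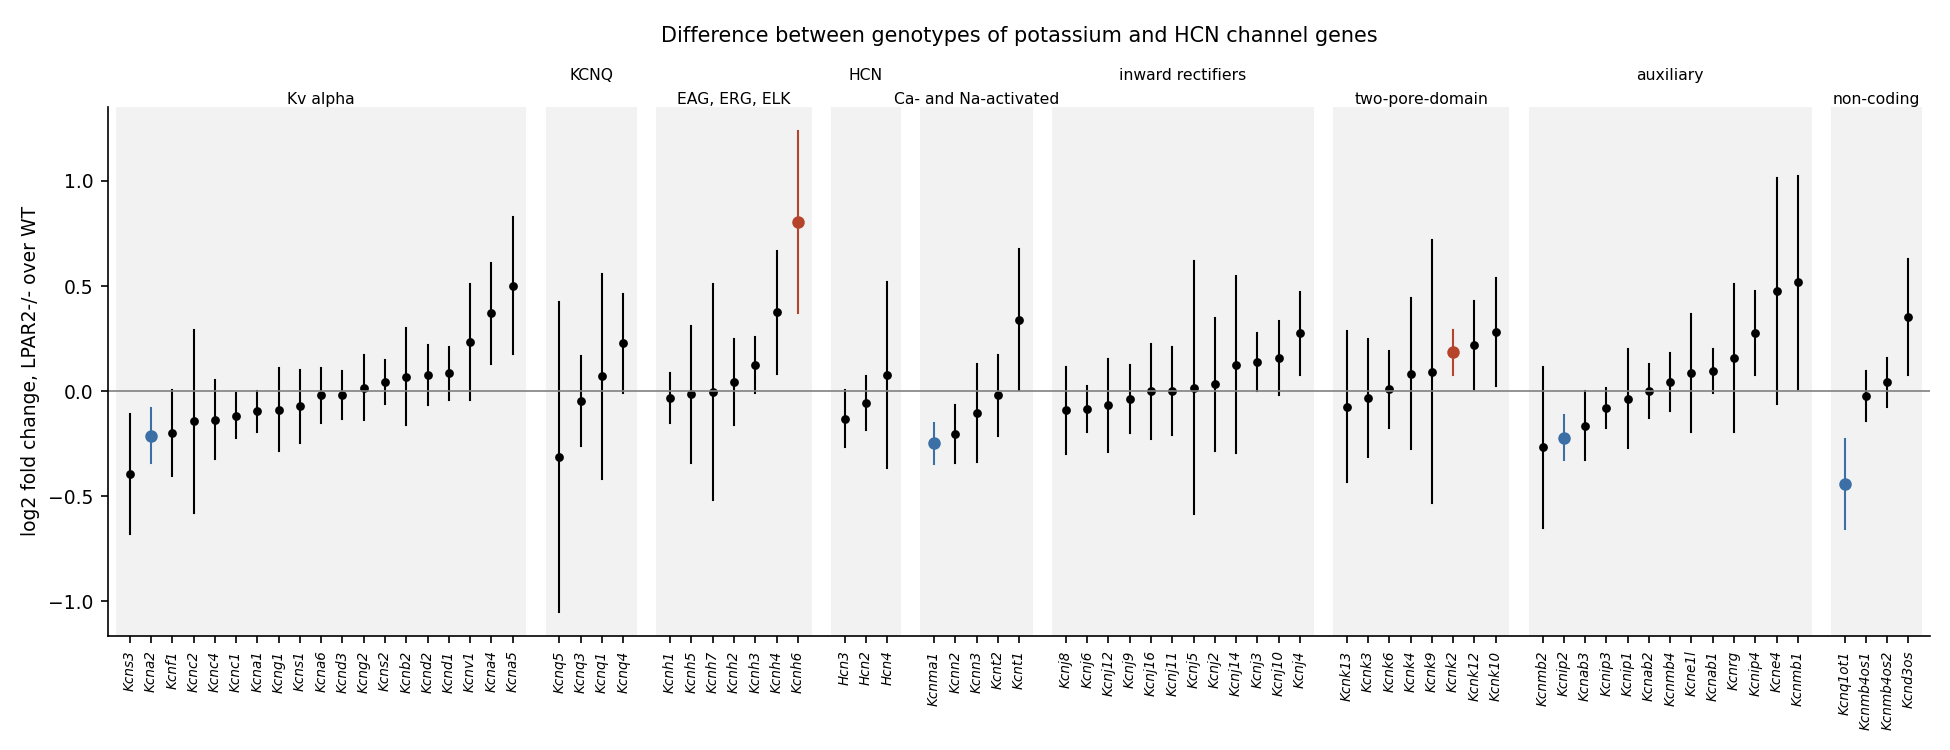
Fold change (log2, LPAR2-/- over WT) of 75 of the 79 genes by family, with points for estimates and lines for 95% confidence intervals from edgeR, in red (higher) or blue (lower) for the 6 genes past an adjusted p of 0.05. The estimates run from −0.44 for Kcnq1ot1 to 0.81 for Kcnh6, and most intervals include 0.

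Kcnma1 encodes the pore of the BK channel, which opens to both depolarization and calcium and shapes the repolarization of the action potential. It lies on chromosome 14 of mm10 from 23298694 to 24004205 on the minus strand. The 7 WT mice had between 28.4 and 32.3 CPM (median 30.5), and the mice labelled LPAR2-/- between 24.3 and 28.8 CPM (median 25.2). The values of 6 of 7 LPAR2-/- mice were below the lowest WT value, and only LPAR2-/- mouse 3 reached into the WT range. Means were 25.6 ± 1.47 (SD, n = 7) and 30.4 ± 1.46 CPM (SD, n = 7), so that the level fell by 15.8% (log2 fold change −0.25, standard error 0.0459, edgeR, adjusted p = 0.00445). The change passed the threshold whichever mouse was left out, with log2 fold changes between −0.28 and −0.23.

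The BK channel is accompanied by beta subunits that change its calcium sensitivity and kinetics. Of these, Kcnmb4, the main beta subunit of neurons, had 43.3 ± 3.41 CPM in LPAR2-/- and 42.1 ± 4.40 CPM in WT mice (SD, n = 7 each), a log2 change of 0.04 (edgeR, adjusted p = 0.747). Its exons share 624 bases with the opposite-strand genes Kcnmb4os1 and Kcnmb4os2, whose log2 fold changes were −0.02 and 0.04. Kcnmb2 had a log2 change of −0.27 (edgeR, adjusted p = 0.410). Kcnmb1, best known from smooth muscle, had the highest estimate among the genes that did not pass (0.52, adjusted p = 0.212) at only 1.222 ± 0.299 and 0.860 ± 0.300 CPM. Markers of pericytes and smooth muscle were also higher in the LPAR2-/- mice in 8 of 9 genes, none of them past the threshold, with summed levels from 193 to 396 CPM against 148 to 338 CPM in WT mice, and their part in the Kcnmb1 value was not tested.

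Kcnip2 was the most abundant of the 6 genes. It is counted on chromosome 19 from 45792346 to 45816063 on the minus strand. WT mice had 353 to 424 CPM (median 402) and LPAR2-/- mice 315 to 376 CPM (median 331). The ranges overlapped, with 5 of 7 LPAR2-/- mice below the lowest WT mouse and none above the WT median. Means were 338 ± 21.5 and 395 ± 27.7 CPM (SD, n = 7 each), and the level fell by 14.2% (log2 fold change −0.22, standard error 0.0508, edgeR, adjusted p = 0.0170). Like Kcnma1, it passed the threshold in all 14 fits that left out 1 mouse, with adjusted p up to 0.0417.

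The other KChIP genes and the A-type pore subunits they bind did not pass. Kcnip3 had a log2 change of −0.08 (edgeR, adjusted p = 0.312), Kcnip1 of −0.04 (adjusted p = 0.889) and Kcnip4 of 0.28 (adjusted p = 0.0939). Without LPAR2-/- mouse 3 or 4 Kcnip4 passed (lowest adjusted p 0.0310). Kcnip4 had 89.1 ± 14.4 CPM in LPAR2-/- and 73.4 ± 6.68 CPM in WT mice (SD, n = 7 each), the opposite direction to Kcnip2, and the difference between these genes was not tested. The A-type subunits Kcnd2 and Kcnd3 had log2 fold changes of 0.08 (95% confidence interval −0.07 to 0.22) and −0.02, with levels of 151 ± 16.95 and 140 ± 4.95 CPM in LPAR2-/- mice. Kcnd3os, antisense to Kcnd3 over 165 exon bases, had a log2 change of 0.35 (edgeR, adjusted p = 0.120).

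Kcnq1ot1 is an imprinted long non-coding RNA that is read from the paternal allele, antisense to Kcnq1, and silences neighbouring genes in cis. It is counted as 1 exon of 83437 bases on chromosome 7 from 143213111 to 143296547 on the minus strand, of which 121 bases overlap exons of Kcnq1. It lies wholly within Kcnq1, which spans 143107254 to 143427042 on the plus strand. The counting took the reverse strand, but the kit on the labels does not mark strand, so that reads of Kcnq1ot1 and of Kcnq1 pre-mRNA may not be told apart. The same holds for Kcnd3os and Kcnmb4os1 and Kcnmb4os2 and their partners. In all, 12 of the 79 genes share exon bases with a gene on the opposite strand, among them Kcnn2 (284 bases) and Kcnip4 (114 bases). In 21 pairs where over 80% of the exon bases of a gene lay opposite the exons of another with over 1 count per base, the count per base of the first was a median of 1.25 times that of the second. WT mice had 16.9 to 23.8 CPM (median 22.3) and LPAR2-/- mice 13.3 to 20.7 CPM (median 15.7). In this case 5 of 7 LPAR2-/- mice were below every WT mouse, while LPAR2-/- mice 6 and 7, with 18.5 and 20.7 CPM, were within the WT range. The level fell by 26.5% (log2 fold change −0.44, standard error 0.101, edgeR, adjusted p = 0.0166), the most negative estimate of the 79 genes. All 14 fits without 1 mouse called it, but limma on the normalized values of the authors did not, with a log2 change of −0.43 at a pseudocount of 0.01 (adjusted p = 0.190) and of −0.08 at a pseudocount of 1 (adjusted p = 0.168), where the WT level of 0.258 RPKM is below the pseudocount. Kcnq1 itself was at 0.731 ± 0.216 and 0.697 ± 0.241 CPM (SD, n = 7 each), a log2 change of 0.07 (edgeR, adjusted p = 0.894).

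Kcna2 encodes an alpha subunit of axonal low-threshold Kv channels, on chromosome 3 from 107101567 to 107115005 on the plus strand. WT mice had 123 to 152 CPM (median 138) and LPAR2-/- mice 104 to 135 CPM (median 124). The ranges overlapped and 3 of 7 LPAR2-/- mice, the lowest of them mice 6 and 7, were below every WT mouse. The level fell by 13.7% (log2 fold change −0.21, standard error 0.0620, edgeR, adjusted p = 0.0486). The adjusted p lay at the threshold. Of the 8 settings that kept every mouse, only DESeq2 called Kcna2 (adjusted p 0.0209 to 0.114). In edgeR it stayed under 0.05 without LPAR2-/- mouse 3 or WT mouse 5 and rose above it without any 1 of the other 12 mice (0.0213 to 0.104 over the 14 fits), with log2 fold changes between −0.25 and −0.18. Without LPAR2-/- mice 6 and 7 together, its log2 fold change was −0.14 (edgeR, adjusted p = 0.129).

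Kcnk2 encodes TREK-1, a K2P leak channel opened by stretch, lipids and heat, on chromosome 1 from 189207930 to 189402273 on the minus strand. WT mice had 47.4 to 54.1 CPM (median 51.6) and LPAR2-/- mice 51.5 to 65.4 CPM (median 56.8). The values of 6 of 7 LPAR2-/- mice were above the highest WT value. The highest were those of mice 6 and 7 (65.4 and 61.4 CPM), the libraries with the highest summed dentate gyrus markers (1917 and 1827 CPM). The part of these markers in the Kcnk2 values was not tested. The level of Kcnk2 rose 1.14-fold (log2 fold change 0.18, standard error 0.0499, edgeR, adjusted p = 0.0366). It lost the threshold without LPAR2-/- mouse 1, 5, 6 or 7 and without WT mouse 2, 3, 5, 6 or 7 (adjusted p up to 0.0841). The same held without LPAR2-/- mice 6 and 7 together (log2 fold change 0.13, edgeR, adjusted p = 0.0830).

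Kcnh6 encodes a channel of the ERG family, on chromosome 11 from 106008203 to 106034064 on the plus strand, and was rare, with 11 to 42 counts per mouse. WT mice had 0.550 to 0.914 CPM (median 0.684) and LPAR2-/- mice 0.768 to 1.82 CPM (median 1.37). All 7 LPAR2-/- mice were above the WT median and 5 of 7 above every WT mouse. The level rose 1.75-fold (log2 fold change 0.81, standard error 0.205, edgeR, adjusted p = 0.0268), with a 95% confidence interval from 0.37 to 1.24. The threshold was missed without LPAR2-/- mouse 1 or 5 and without WT mouse 4, 5 or 6 (adjusted p up to 0.0606). With limma on the normalized values the log2 change was 0.74 at a pseudocount of 0.01 (adjusted p = 0.0560) and 0.20 at a pseudocount of 1 (adjusted p = 0.0489), where the WT level of 0.259 RPKM is below the pseudocount.

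**Figure D3:**
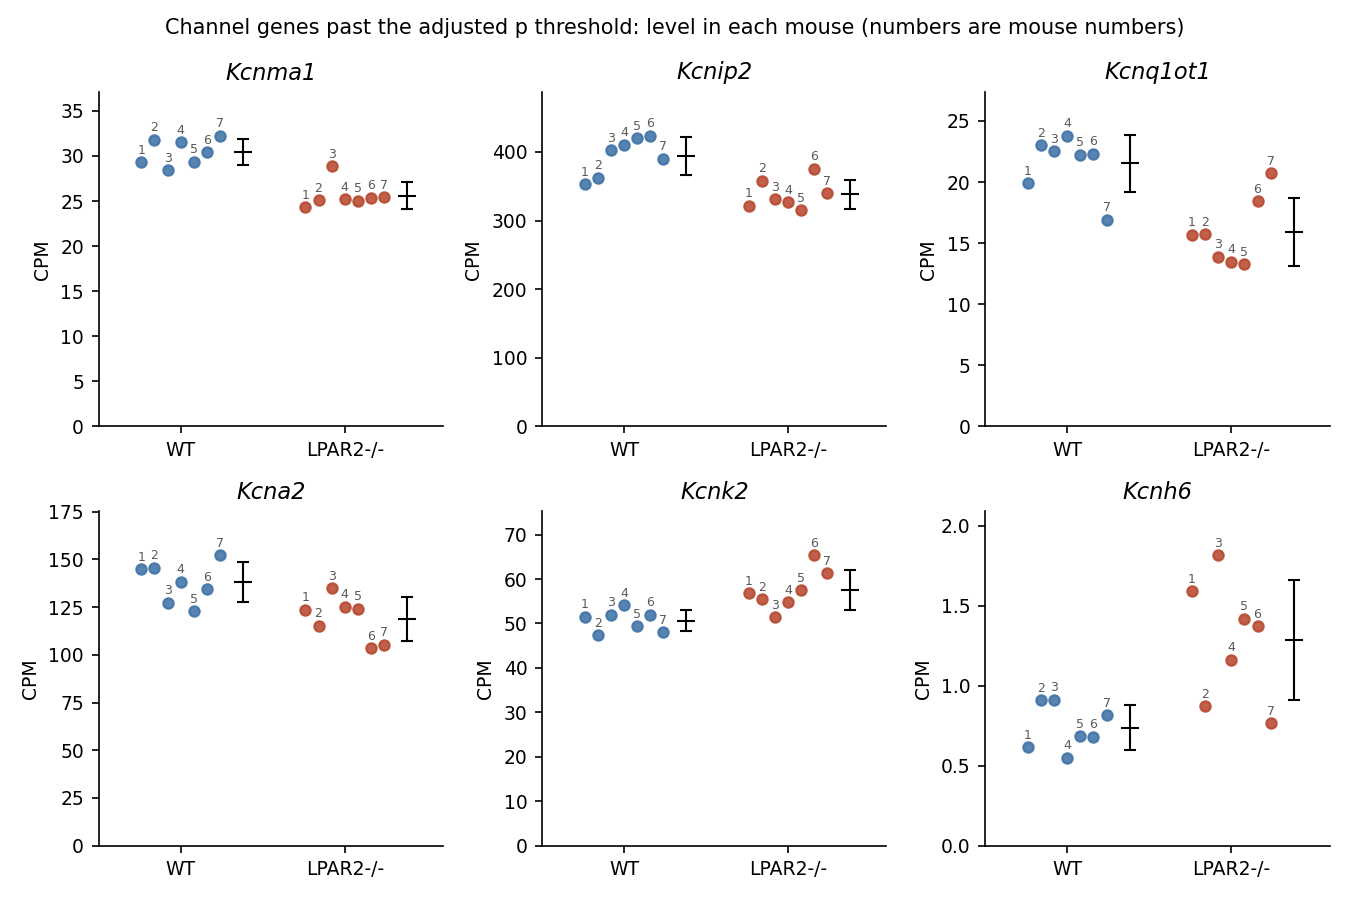
Level (CPM, axes from 0) of the 6 genes past an adjusted p of 0.05 in each WT (blue) and LPAR2-/- mouse (red), labelled by mouse number, with the mean and SD of 7 mice at the right of each group. Kcnma1, Kcnip2, Kcnq1ot1 and Kcna2 were lower and Kcnk2 and Kcnh6 higher in LPAR2-/- mice, and in each panel the genotypes overlap.

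The 250 bases before the start of Kcnma1, Kcnip2 and Kcnq1ot1, the genes called in all fits without 1 mouse, are shown to set their composition side by side, 5′ to 3′ on the strand of the gene (RefSeq, GRCm38.p6, the same assembly as mm10). Capitals mark the GC box GGGCGG or its reverse complement. The windows are chr14:24004206-24004455 for Kcnma1, chr19:45816064-45816313 for Kcnip2 and chr7:143296548-143296797 for Kcnq1ot1, all on the minus strand.
Kcnma1: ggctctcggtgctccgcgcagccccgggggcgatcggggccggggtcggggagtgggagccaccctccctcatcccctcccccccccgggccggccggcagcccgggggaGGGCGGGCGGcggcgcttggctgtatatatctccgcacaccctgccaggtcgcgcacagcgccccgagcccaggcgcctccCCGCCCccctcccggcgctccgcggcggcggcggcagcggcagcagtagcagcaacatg
Kcnip2: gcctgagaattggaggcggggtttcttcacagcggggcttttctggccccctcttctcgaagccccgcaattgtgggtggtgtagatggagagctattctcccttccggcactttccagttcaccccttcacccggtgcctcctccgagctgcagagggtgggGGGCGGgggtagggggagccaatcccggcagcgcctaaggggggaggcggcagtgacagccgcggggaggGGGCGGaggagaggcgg
Kcnq1ot1: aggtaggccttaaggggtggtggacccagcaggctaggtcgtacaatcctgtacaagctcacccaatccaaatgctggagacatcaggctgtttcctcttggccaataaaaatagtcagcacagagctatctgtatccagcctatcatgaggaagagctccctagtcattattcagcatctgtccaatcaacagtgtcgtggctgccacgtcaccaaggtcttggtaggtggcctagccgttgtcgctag
The Kcnma1 window is 79.2% G and C and holds 3 GC boxes, the first 2 of which overlap. The Kcnip2 window (66.8%) holds 2 and the Kcnq1ot1 window (51.2%) none. A promoter entry was present for 54 of the 79 genes, and 34 of these (63.0%) held a GC box in a 250-base window, against 35.4% of 27025 genes. The median content of G and C was 59.0% over the entries of the channel genes and 52.4% over all entries. The cAMP response element TGACGTCA was in none of the 54 (1.77% of all genes), its first part TGACG in 11 of 54 (19.8% of all), the AP-1 motif TGANTCA in 3 of 54, namely Kcnk2, Kcnip3 and Kcnip4 (7.82% of all), and the EGR motif GCGTGGGCG in none (0.622% of all). TATAAA was in 2 of 54 (14.3% of all). All motifs were searched on both strands, and TGACG lies within TGACGTCA. These matches describe letters in these windows. The 54 genes had passed the count rule, whereas the 27025 genes were not limited to genes counted here. The 54 genes had 76 windows and the 27025 genes 32851, and a match in any 1 window of a gene was enough. The shares therefore cannot show whether channel genes differ from other expressed genes.

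Of the 21 Kv alpha subunits, 8 had higher and 13 lower estimates in LPAR2-/- mice, and only Kcna2 passed. Kcna1, which joins Kcna2 in axonal channels, had 230 ± 12.5 CPM in LPAR2-/- and 246 ± 15.9 CPM in WT mice (SD, n = 7 each), a log2 change of −0.10 (edgeR, adjusted p = 0.226). Kcna4, a rapidly inactivating subunit, had 45.9 to 68.1 CPM (median 57.2) in LPAR2-/- and 37.4 to 63.0 CPM (median 41.4) in WT mice. Its highest WT value was that of mouse 1. The log2 fold change of 0.37 missed the threshold (standard error 0.113, edgeR, adjusted p = 0.0640), and passed it without WT mouse 1 or without LPAR2-/- mouse 5 (lowest adjusted p 0.0042). Kcna5 had a log2 change of 0.50 at 3.17 ± 0.580 and 2.24 ± 0.490 CPM (edgeR, adjusted p = 0.0622), and passed without LPAR2-/- mouse 2 or WT mouse 1. Kcnc1, a subunit for fast spiking, had a log2 change of −0.12 (edgeR, adjusted p = 0.176). Kcns3, an electrically silent subunit that modifies others, had the most negative estimate among the genes that did not pass (−0.40, standard error 0.135, edgeR, adjusted p = 0.0907).

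None of the 5 KCNQ genes passed. Kcnq3, a subunit of the M-current channel that opposes repetitive firing, had 5.19 ± 0.597 and 5.37 ± 0.697 CPM (SD, n = 7 each). Kcnq5 varied most between mice of all 79 genes, with an SD of 0.81 in LPAR2-/- and 0.62 in WT mice on the log2 scale. It had 19.97 to 91.4 CPM (median 58.1) in LPAR2-/- mice and 35.2 to 121 CPM (median 56.4) in WT mice, with a log2 change of −0.31 and an interval from −1.05 to 0.42.

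None of the 4 HCN genes passed. Hcn2, at 21.1 RPKM in WT mice, had 56.1 to 70.9 CPM (median 65.3) in LPAR2-/- and 62.4 to 75.2 CPM (median 65.1) in WT mice. Its log2 fold change was −0.06 (95% confidence interval −0.19 to 0.07, edgeR, adjusted p = 0.623). Hcn3 had a log2 change of −0.13 (interval −0.27 to 0.00, adjusted p = 0.241) and Hcn4, at 0.841 ± 0.230 and 0.805 ± 0.206 CPM, of 0.08 (interval −0.36 to 0.52, adjusted p = 0.870). Per length, Hcn3 was at 4.16 RPKM and Hcn4 at 0.212 RPKM in WT mice, both below Hcn2.

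Several wide spreads between mice came from the same animals. LPAR2-/- mice 6 and 7 had the lowest values of their genotype for Kcnq5 (24.7 and 19.97 CPM), Kcnc2, a subunit of fast delayed rectifiers (35.9 and 40.6 CPM), and the K2P genes Kcnk9 (1.19 and 0.704 CPM) and Kcnk4 (4.78 and 3.26 CPM). Their Kcnc2 values were below all 12 other mice, whose lowest was 63.7 CPM in WT mouse 4. The same libraries held the highest summed levels of the 7 dentate gyrus markers, 1917 and 1827 CPM against 1178 to 1455 CPM in the other LPAR2-/- and 1221 to 1711 CPM in the WT mice, whereas their interneuron sums, 613 and 713 CPM, were below the 730 to 900 CPM of all other mice and their CA3 sums, 272 and 258 CPM, below the 292 to 387 CPM of the other LPAR2-/- mice. The part of these markers in the channel values was not tested. Without these 2 mice, a setting chosen after their values had been seen, the log2 fold change of Kcnq5 was −0.01 (edgeR, adjusted p = 0.984). Without them Kcnma1, Kcnip2, Kcnq1ot1 and Kcnh6 still passed. LPAR2-/- mouse 3, which stood apart in oligodendrocyte markers, had the lowest value of its genotype in 21 and the highest in 22 of the 79 genes. The median SD of the 79 genes on the log2 scale was 0.18 in LPAR2-/- and 0.19 in WT mice, against 0.14 and 0.13 for all genes tested.

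**Figure D4:**
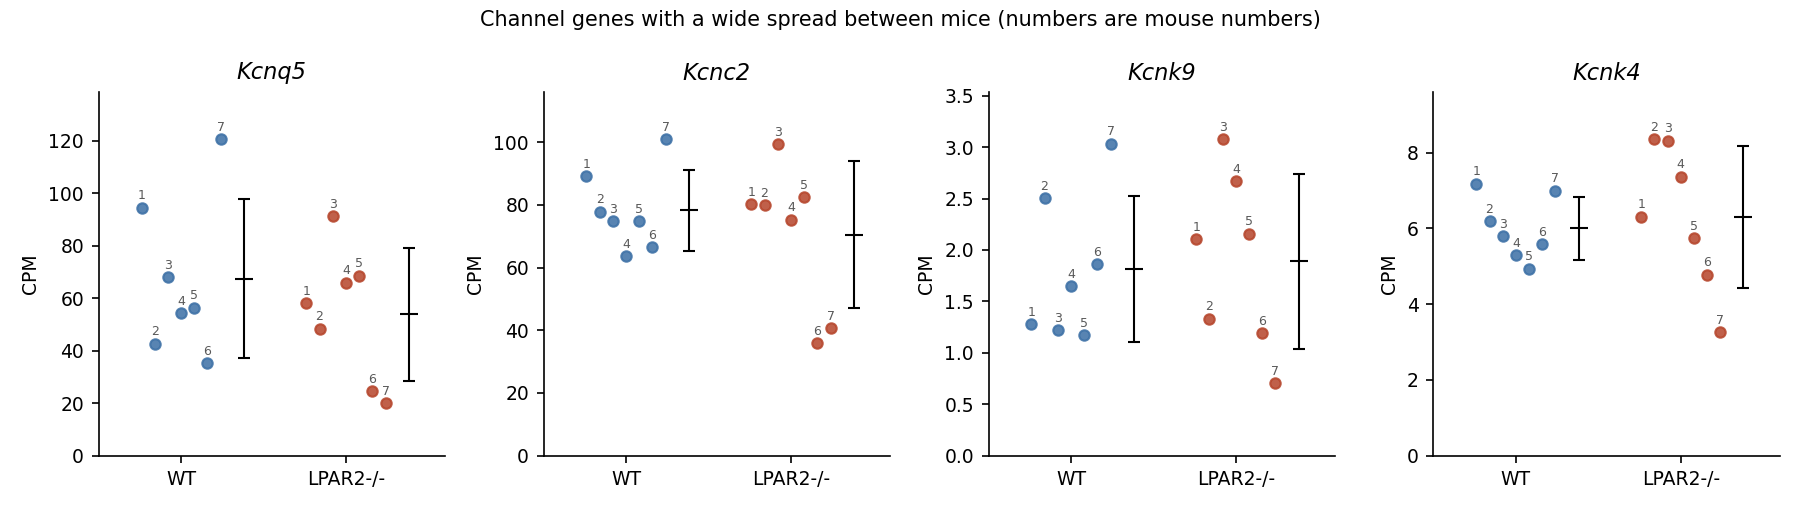
Level (CPM, axes from 0) of Kcnq5, Kcnc2, Kcnk9 and Kcnk4 in each WT (blue) and LPAR2-/- mouse (red), labelled by mouse number, with the mean and SD of 7 mice at the right of each group. LPAR2-/- mice 6 and 7 are the lowest of their genotype in all 4 panels, at 24.7 and 19.97 CPM for Kcnq5.

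Among the 5 calcium- and sodium-activated channels, Kcnn2, the more abundant of the 2 SK channel genes kept, had 35.0 to 45.8 CPM (median 39.9) in LPAR2-/- and 43.0 to 54.2 CPM (median 44.0) in WT mice. Its log2 fold change was −0.20 (standard error 0.0663, edgeR, adjusted p = 0.0760), and it passed without LPAR2-/- mouse 5 (adjusted p = 0.0490) and with DESeq2 (adjusted p = 0.0451). Kcnn3 had −0.10 (adjusted p = 0.620). The sodium-activated channels Kcnt1 and Kcnt2 had log2 fold changes of 0.34 (edgeR, adjusted p = 0.215) and −0.02.

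None of the 12 inward rectifiers passed, with 7 estimates above 0. The subunits of the G protein-gated channels, which slow neurons on GABA and adenosine signals, had log2 fold changes of 0.14 for Kcnj3 (240 ± 26.03 and 218 ± 15.03 CPM, adjusted p = 0.217), −0.08 for Kcnj6 (52.7 ± 3.398 and 55.9 ± 3.98 CPM, adjusted p = 0.356) and −0.04 for Kcnj9 (133 ± 14.1 and 136 ± 14.6 CPM, adjusted p = 0.809; edgeR, SD, n = 7 each). Kcnj4, a strong rectifier and per length the most abundant of the family, had 81.0 to 133 CPM (median 115) in LPAR2-/- and 83.7 to 102 CPM (median 91.1) in WT mice. Its log2 fold change was 0.28 (edgeR, adjusted p = 0.0925), and without LPAR2-/- mouse 3, the lowest of its genotype, it passed (adjusted p = 0.0120). Kcnj10, the channel by which astrocytes take up potassium, had 224 ± 33.5 and 201 ± 15.4 CPM (log2 fold change 0.16, edgeR, adjusted p = 0.280). Its highest value, 283 CPM, was that of LPAR2-/- mouse 3, which also had the highest oligodendrocyte markers. That mouse had the highest summed astrocyte markers of its genotype too (5670 CPM). WT mouse 4, the highest WT mouse for Kcnj10 (222 CPM), had the highest astrocyte sum of all mice (5758 CPM). The mean astrocyte sum was lower in LPAR2-/- than in WT mice (5212 against 5411 CPM). The log2 fold change of Kcnj10 was 0.09 without LPAR2-/- mouse 3 and up to 0.21 without any other. The part of either marker list in the Kcnj10 values was not tested. Kcnj8, a channel of pericytes, was at 3.37 ± 0.426 and 3.59 ± 0.228 CPM (log2 fold change −0.09, edgeR, adjusted p = 0.622). Its estimate was below 0, whereas 8 of 9 markers of pericytes and smooth muscle were higher in LPAR2-/- mice.

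The 7 other K2P genes did not pass. Their estimates were between −0.08 for Kcnk13 and 0.28 for Kcnk10 (edgeR, adjusted p = 0.183). Among the beta subunits of Kv channels, Kcnab2 had equal means, 711 ± 61.2 and 711 ± 57.8 CPM, with a log2 change of 0.00. Kcnab1 and Kcnab3 had 0.10 and −0.16. Of the ERG and related channels, Kcnh3 had 118 ± 13.1 and 109 ± 5.98 CPM (log2 fold change 0.12, edgeR, adjusted p = 0.264, or 0.0285 without LPAR2-/- mouse 3). Kcnh4 had a log2 change of 0.37 (edgeR, adjusted p = 0.118), and passed without LPAR2-/- mouse 3 or WT mouse 1.

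At the edge of the rule, Kcnh7 was kept with 3 to 15 counts per mouse (4 mice under 10), and Kcnj13 was left out with 8 mice under 10. Kcnj13, a channel of choroid plexus and other epithelia, had 15, 33, 4, 41, 55, 28 and 8 counts in LPAR2-/- mice 1 to 7 and 7, 2, 7, 22, 2, 3 and 5 in WT mice 1 to 7. Its highest counts were in LPAR2-/- mice 5 and 4, the libraries with the highest summed levels of the 8 meningeal fibroblast markers (463 and 405 CPM). That list spanned 98.2 to 463 CPM in LPAR2-/- and 75.6 to 343 CPM in WT mice, with 7 of 8 markers higher and 1 of them, Lum, past the threshold, and its part in the Kcnj13 counts was not tested. Kcne2, an auxiliary subunit of the choroid plexus, had 39 counts in LPAR2-/- mouse 2 and 1 to 7 in every other mouse. That mouse also held 242 CPM of Ttr, a choroid plexus marker, against at most 18.4 CPM elsewhere. Kcnk15 had 0 counts in all 14 mice, which allows up to 3 counts per mouse, and the genes left out for low counts other than Kcnj13 had at most 39 counts in a mouse.

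Partner proteins whose symbols the rule does not take were compared from a list of 23 genes, of which 21 were tested. None of them passed (edgeR, 0 of 21 against 6.77% of all genes, with 4 of 21 at an unadjusted p under 0.05 against 22.4% of all genes), whereas DESeq2 called 2 (against 8.60% of the 16259 genes it tested). The genes nearest to the threshold were Snx27, a sorting protein that binds G protein-gated channels, with 147 ± 7.60 and 165 ± 13.2 CPM (SD, n = 7 each, log2 fold change −0.17, edgeR, adjusted p = 0.0567), and Ank3, which anchors KCNQ channels at the axon initial segment, with 299 ± 15.2 and 330 ± 17.1 CPM (log2 fold change −0.14, adjusted p = 0.0568). Dpp6 and Dpp10, partners of the A-type channels, had log2 fold changes of 0.04 and −0.07, and Pex5l, which traffics HCN channels, of −0.12 (adjusted p = 0.349). Among other voltage-gated channels, 1 of 10 Scn and 0 of 8 Cacna1 genes passed, with 1 and 0 at an unadjusted p under 0.05.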

How the data were processed

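RNA of 14 hippocampi was sequenced by the authors, 1 library per mouse. The labels name a TruSeq RNA kit and the methods a TruSeq total RNA kit with removal of ribosomal RNA. Per the submitters' processing notes, reads were trimmed with cutadapt 1.18 and aligned to mm10 with STAR. The deposited counts are whole reads on the exons of each gene, counted with featureCounts 1.6.3 per the file headers and not normalized. They were the main data, and other normalized values, which the authors deposited as counts divided by size factors of DESeq2 1.22.2 and by gene length, were an alternative (16510 entries). Their cells had lost the decimal points and were read as thousandths, after which 99.98% of the compared values lay within 1% of scaled counts. A further 14 columns, log2 values of the same mice, were not used.

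Of 24421 genes, 14897 passed filterByExpr. R 4.3.3 with edgeR 4.0.16 was used for TMM scaling and the robust quasi-likelihood F test of 7 LPAR2-/- against 7 WT mice without covariates, with Benjamini-Hochberg adjustment over all genes tested and a threshold of 0.05. limma 3.58.1 and DESeq2 1.42.0 were alternatives, as were other scalings and filters, the mouse number as a block, a pseudocount of 0.01 or 1 on the normalized values, and each mouse left out in turn. RPKM and CPM were computed from the TMM-scaled counts, and marker lists were compared over all 3432 arrangements of the mice. The procedures were tested on simulated data. Counts per mouse limit the precision of rare genes, with a floor of 3 counts where none were seen (counting error only).

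The channel genes, families, partner and marker lists were chosen with earlier results of these data known. Named were the genes past the threshold, Lpar2, the HCN genes, the best-known hippocampal Kv, KCNQ, SK, Kir and K2P genes, the most abundant gene of each family, the genes at the edge of the rule and those with the largest change that did not pass. Other genes were named after their values were seen. Mice of the same number were not treated as pairs in the main fit. After removal of genotype means, their correlations lay between −0.33 and 0.31, and 3 of 7 were over 0.1. Of the 7 LPAR2-/- mice, 3 correlated best with the WT mouse of their own number. These values cannot show whether mice of the same number shared a batch. No libraries of a genotype were copies (their chi-square divided by its degrees of freedom was 3.41 or more in 42 pairs). Genes on chromosome 8 are not reported here apart from Lpar2. A few of the 79 genes are counted in every total but not reported by name here. The mice are separate animals, but litter and day are not stated in the sources used here.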

Additional observations from a re-analysis of the deposited data

Results flagged for a closer look

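In 8 cases out of 100 groups of 7 mice examined, 1 mouse stood apart from the others of its genotype by Dixon's test. Chance flags about 1 in 20 groups, or 5 in 100. Kcnma1 was 28.8 CPM in LPAR2-/- mouse 3, against at most 25.4 CPM in the other LPAR2-/- mice, the only value of that genotype within the WT range. Kcnn3, which encodes an SK channel, was 12.0 CPM in WT mouse 2 (next 9.14 CPM) and 6.20 CPM in LPAR2-/- mouse 2 (next 8.0 CPM). Kcnh3, a channel of the ELK group, was 97.2 CPM in WT mouse 7 (next 107 CPM).

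The other 4 cases are summed marker levels. The choroid plexus list was at 297 CPM in LPAR2-/- mouse 2 (next 55.4 CPM) and the oligodendrocyte list at 4107 CPM in LPAR2-/- mouse 3 (next 2055 CPM). The meningeal fibroblast list was at 343 CPM in WT mouse 4 (next 178 CPM) and the CA1 list at 345 CPM in WT mouse 2 (next 145 CPM).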

How the results depend on the processing

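Kcnma1 and Kcnip2 passed the threshold in all 8 settings that kept every mouse, Kcnk2 in 7, Kcnh6 in 6, Kcnq1ot1 in 5 and Kcna2 in 1. DESeq2 called 5 channel genes higher (Kcna4, Kcna5 and Kcnj4 in addition), 5 lower (Kcnn2 in addition) and 2 partner genes, where it called 8.60% of all genes (674 higher, 724 lower). limma on the normalized values called 1 higher and 2 lower with a pseudocount of 0.01 (5.36% of all genes), and 2 higher and 2 lower with a pseudocount of 1 (5.44% of all genes). In the fit with a replicate block for the mouse number, 1 channel gene was higher (Kcna4, adjusted p = 0.0346) and 2 were lower (Kcnma1 and Kcnip2, while the adjusted p was 0.0678 for Kcnq1ot1, 0.0707 for Kcnh6, 0.0798 for Kcnk2 and 0.114 for Kcna2), and over all genes 314 were higher and 272 lower (3.93%); 3 of 7 LPAR2-/- mice correlated best with their own number. Leaving out 1 mouse gave 0 to 6 channel genes higher (6 without LPAR2-/- mouse 3 or WT mouse 1) and 3 to 4 lower, 0 to 2 partner genes, and over all genes 275 to 660 higher and 292 to 725 lower, with the lowest counts without WT mouse 2. Without LPAR2-/- mice 6 and 7 together, chosen after seeing the data, 1 channel gene was higher, 3 were lower and 1 partner gene passed, against 6.45% of all genes (436 higher, 534 lower). No called value changed sign, and 23 of 826 fits of 36 named genes changed the sign of a value that was not called. The cause of these differences was not tested. Depth limits the rare genes, such as Kcnh6, Kcnmb1 and Hcn4.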
